A study of Mus musculus with 6 samples.

Results

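De novo lipogenesis is the making of fatty acids from carbohydrate carbon, and 10 genes that carry it out or control it were followed here in mouse liver: Slc25a1, Acly, Acss2, Me1, Acaca, Acacb, Fasn, Thrsp, Mlxipl and Pnpla3. The members were all probe sets, the groups of short oligonucleotides that report a transcript on an Affymetrix array, that carried the symbol of a member and no other symbol. There were 22 such probe sets out of 45037 on the array that are not array controls. Of these, 18 passed the filter on dim probe sets and 4 did not, and each of the 10 genes kept at least 1. For a gene with several kept probe sets the brightest represented it, as for all 13144 genes tested.

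Liver RNA was measured on 6 arrays, each from a different male mouse aged 3 weeks. The 3 controls were Srf loxP/+ AlfpCre and the 3 mutants Srf loxP/loxP AlfpCre, so that both groups carried the Cre recombinase transgene and at least 1 Srf copy flanked by loxP sites. Srf encodes serum response factor, a transcription factor, and AlfpCre directs Cre to cells of the liver's epithelial lineage, so RNA of other liver cells came from cells it does not target. The comparison asks which transcripts of the pathway differ in liver when both copies of Srf, rather than 1, are open to deletion.

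In this pathway, citrate leaves the mitochondrion through the carrier SLC25A1 and is cleaved by ATP citrate lyase (ACLY) to cytosolic acetyl-CoA. Acetyl-CoA carboxylase converts that to malonyl-CoA, and fatty acid synthase (FASN) builds palmitate from it with NADPH, part of which comes from malic enzyme (ME1). In liver the genes are induced by feeding, through the insulin-responsive factor SREBP-1c and the carbohydrate-responsive factor ChREBP, which Mlxipl encodes.

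All values are log2 signals after the arrays were scaled to equal trimmed means, and a log2 fold change is mutant minus control. Differences were tested with limma over all 27022 kept probe sets with Benjamini-Hochberg adjustment. The background level, estimated from receptor genes of smell and taste, was 2.87 in controls and 3.04 in mutants.

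Transcripts of 6 of the 10 genes were lower on each of the 3 mutant arrays than on any control array: Slc25a1, Acly, Acss2, Me1, Fasn and Thrsp. Among all genes tested, 10.8% had that pattern. The remaining genes, Acaca, Acacb, Mlxipl and Pnpla3, overlapped between the groups. None of the 10 passed the adjusted threshold of 0.05, where 0.114% of all genes did in either direction and 0.0837% as lower. By limma, 7 were lower and none higher at an unadjusted p under 0.05, against 7.01% of all genes lower and 7.36% higher. The median log2 fold change of the 10 genes was -1.30, and that of all genes was 0.06.

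**Figure D1:**
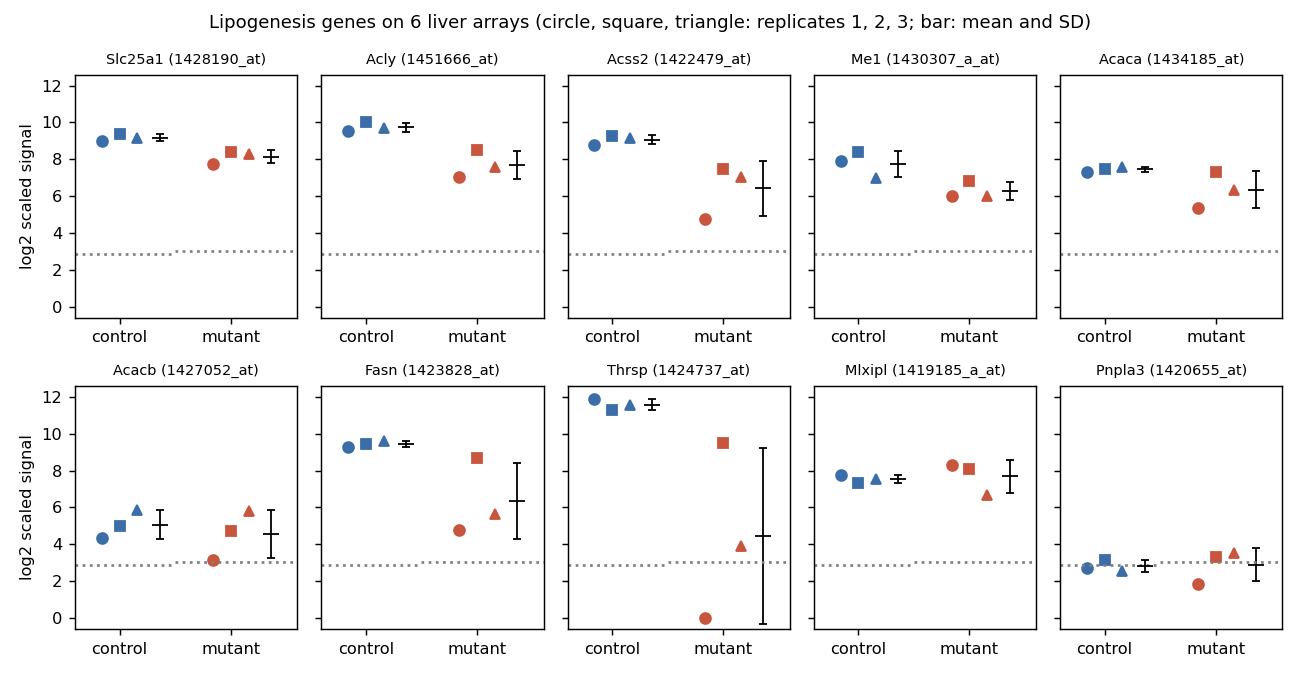
Log2 scaled signal (vertical axis) of the probe set representing each gene on the 3 control arrays (blue) and the 3 mutant arrays (red), with the mean and SD beside the points; the dotted lines mark the background level. Slc25a1, Acly, Acss2, Me1, Fasn and Thrsp show no overlap between the groups, and the mutant arrays of Thrsp range from 0 to 9.51.

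The first members supply acetyl-CoA and reducing power. Slc25a1, the mitochondrial citrate carrier (1428190_at), gave 8.98, 9.36 and 9.17 in controls 1 to 3, against 7.75, 8.38 and 8.28 in mutants 1 to 3 (arrays are listed in this order throughout). The mutant arrays were close together and all below the controls. The log2 fold change was -1.04 (SE 0.25, 95% interval -1.61 to -0.46, adjusted p = 0.239), or 48.8% of the control level.

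Acly, which makes cytosolic acetyl-CoA from citrate (1451666_at), gave 9.51, 10 and 9.69 in controls, against 7.01, 8.51 and 7.58 in mutants. Mutant 1 was the lowest and mutant 2 the nearest to the controls. By limma the log2 fold change was -2.03 (SE 0.38, 95% interval -2.90 to -1.16, adjusted p = 0.133). The probe sets 1425326_at and 1439459_x_at of Acly also had no overlap between the groups, with log2 fold changes of -2.61 and -1.39 (adjusted p = 0.196 and 0.103). On 1439459_x_at, whose suffix marks oligonucleotides that can match related transcripts, the mutant arrays were almost equal at 7.98, 7.92 and 8.0. The other 3 Acly probe sets had group means below background.

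Acss2 encodes the cytosolic acetyl-CoA synthetase, which activates acetate in place of citrate. Its probe set 1422479_at gave 8.78, 9.28 and 9.15 in controls, against 4.73, 7.46 and 7.06 in mutants. Mutant 1 stood far below mutants 2 and 3, which were near each other. The log2 fold change was -2.65 (SE 0.64, 95% interval -4.14 to -1.17, adjusted p = 0.241), and 1422478_a_at gave -2.41 (adjusted p = 0.235). The dim probe set 1446542_at did not separate the groups (-0.41, adjusted p = 0.718). A further probe set that lists Acss2 together with another symbol was not assigned.

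Me1 encodes cytosolic malic enzyme, a source of NADPH. Its brighter probe set 1430307_a_at gave 7.92, 8.38 and 6.99 in controls, against 6.0, 6.84 and 6.0 in mutants. The gap between the lowest control and the highest mutant was small, and the control arrays differed among themselves more than for the other non-overlapping genes (SD 0.71, n = 3). This probe set had a log2 fold change of -1.48 (95% interval -2.43 to -0.54, adjusted p = 0.285). The other probe set of Me1, 1416632_at, overlapped between the groups, at 6.42, 6.81 and 6.0 in controls, against 6.39, 6.13 and 5.69 in mutants (-0.34, 95% interval -1.06 to 0.38, adjusted p = 0.599). The difference for Me1 thus rests on 1 of its 2 probe sets.

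**Figure D2:**
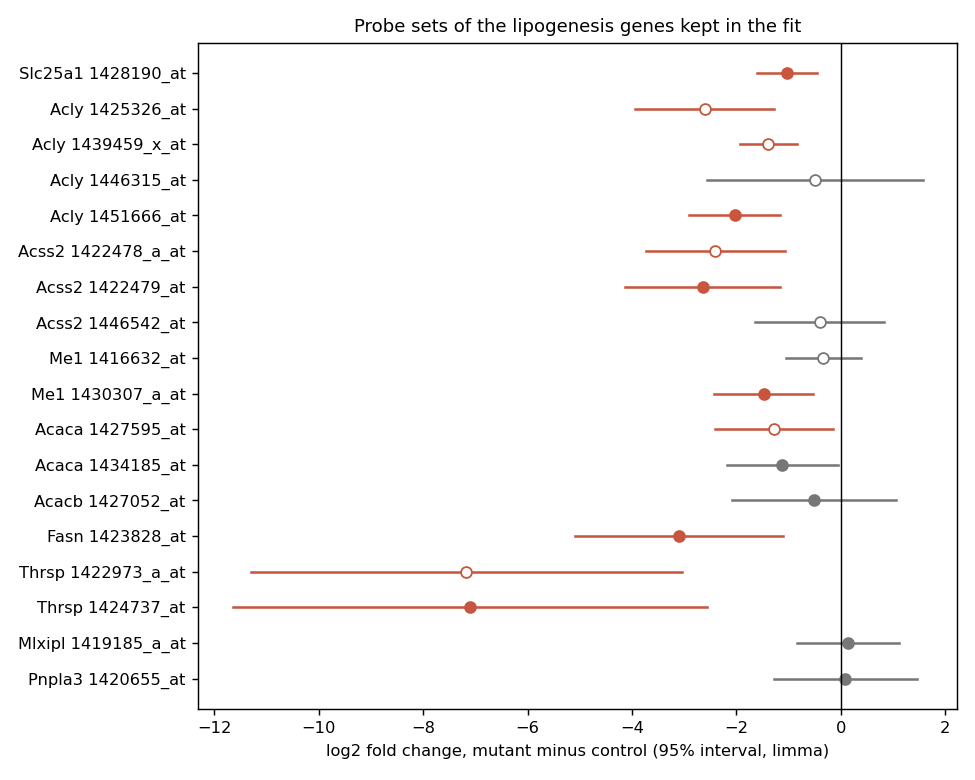
Log2 fold change, mutant minus control (horizontal axis), of the 18 kept probe sets with the 95% interval from limma; filled points represent the gene, and red marks groups that do not overlap. The intervals of 12 probe sets lie below 0, before adjustment for multiple tests, and those of Thrsp are the widest, from -11.29 to -3.04 for 1422973_a_at and from -11.64 to -2.57 for 1424737_at.

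The acetyl-CoA carboxylases make malonyl-CoA. Acaca encodes the cytosolic form that feeds fatty acid synthesis, and Acacb the form at the mitochondrial surface whose malonyl-CoA restrains fatty acid import for oxidation. Acaca (1434185_at) gave 7.31, 7.49 and 7.56 in controls, against 5.33, 7.33 and 6.34 in mutants. Mutant 2 lay within the control range and mutants 1 and 3 lay below it. The log2 fold change was -1.12 (SE 0.46, 95% interval -2.19 to -0.05, adjusted p = 0.356). On the dimmer 1427595_at of Acaca the groups did not overlap, although mutant 2 at 4.12 was just under control 3 at 4.19 (-1.29, adjusted p = 0.340). Mutants 1 and 3 were under background on this probe set, and with arrays raised to background the difference was -1.03.

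Acacb (1427052_at) gave 4.34, 4.97 and 5.88 in controls, against 3.16, 4.7 and 5.80 in mutants. The ranges overlapped widely, and both groups were spread out. The log2 fold change was -0.51, with a 95% interval from -2.08 to 1.05 (adjusted p = 0.720), so that these arrays could not tell a decrease as large as that of Acaca from no change. The other Acacb probe set was left out as dim. The difference between the Acaca and Acacb changes was not tested.

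Fasn and Thrsp showed the largest fold changes among the 10 genes. Fasn (1423828_at), the multifunctional enzyme that assembles palmitate, gave 9.30, 9.46 and 9.61 in controls, against 4.75, 8.68 and 5.65 in mutants. The controls agreed closely, mutants 1 and 3 were far below them, and mutant 2 was slightly below. On the linear scale the scaled signals were 630, 703 and 783 in controls, against 26.9, 410 and 50.2 in mutants. Fasn thus had a log2 fold change of -3.10 (SE 0.87, 95% interval -5.10 to -1.10, adjusted p = 0.287).

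Thrsp encodes Spot 14, a small protein whose gene responds to thyroid hormone and carbohydrate and is induced together with the lipogenic enzymes. Its probe set 1424737_at gave 11.89, 11.30 and 11.55 in controls, against 0, 9.51 and 3.90 in mutants. Mutant 1 was at the floor of the scale, mutant 3 was little above background, and mutant 2 kept a bright signal below every control. The fitted log2 fold change was -7.11 (SE 1.97, adjusted p = 0.285), which depends on the floor; with arrays under background raised to it the difference was -6.09, or 68.3-fold lower. The probe set 1422973_a_at of Thrsp showed the same order, with 11.20, 10.38 and 10.79 in controls, against 0, 8.42 and 2.45 in mutants (-7.17, adjusted p = 0.249; -5.95 with arrays raised to background). The third Thrsp probe set was left out as dim.

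The promoters of Fasn and Thrsp are shown because these members had the largest fold changes, and that of Slc25a1 because it had the smallest of the 6 non-overlapping genes. Each is the 250 bases before the transcription start from RefSeq on build GRCm38.p6, 5′ to 3′ on the strand of the gene, with capitals marking matches to CCAAT or CACGTG on either strand. CCAAT is the box bound by the general factor NF-Y, and CACGTG is the E-box bound by factors of the USF and ChREBP kind.
Fasn, minus strand, chr11:120824548-120824797: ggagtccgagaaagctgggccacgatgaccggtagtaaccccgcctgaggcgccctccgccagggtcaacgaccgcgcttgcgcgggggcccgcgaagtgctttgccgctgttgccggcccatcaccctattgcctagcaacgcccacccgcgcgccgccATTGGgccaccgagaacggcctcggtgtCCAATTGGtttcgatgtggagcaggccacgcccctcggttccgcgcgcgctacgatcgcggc
Thrsp, minus strand, chr7:97417551-97417800: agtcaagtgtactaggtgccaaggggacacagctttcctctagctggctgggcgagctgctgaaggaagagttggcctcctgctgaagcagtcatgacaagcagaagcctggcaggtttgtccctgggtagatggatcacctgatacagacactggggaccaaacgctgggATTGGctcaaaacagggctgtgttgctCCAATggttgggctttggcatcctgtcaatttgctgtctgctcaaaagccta
Slc25a1, minus strand, chr16:17928220-17928469: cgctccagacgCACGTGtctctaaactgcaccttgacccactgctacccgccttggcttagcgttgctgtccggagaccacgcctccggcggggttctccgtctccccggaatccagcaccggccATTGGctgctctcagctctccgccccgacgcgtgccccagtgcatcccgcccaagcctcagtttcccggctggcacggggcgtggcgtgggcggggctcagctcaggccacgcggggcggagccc

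A CCAAT match lay 90, 62 and 59 bases before the Fasn start, the last pair overlapping on opposite strands, and 79 and 52 bases before the Thrsp start. In Slc25a1 it lay 125 bases before the start, with a CACGTG match 239 bases before it. RefSeq gave 12 such windows for the 10 genes, with a pair each for Me1 and Mlxipl. CCAAT was in 8 of the 12, against 33.9% of the 32841 windows of that length over all genes. CACGTG was in 2 of the 12 (6.02% of all), and the Sp1 box GGGCGG in 6 (32.7% of all). The element bound by SREBP, searched as TCACNCCAC, was in 1 (1.05% of all). The CArG box of serum response factor was in none of the 12 (1.47% of all). These are letter matches in a short window, on both strands, and say nothing of which factors bind there.

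Mlxipl, the gene of the regulator ChREBP (1419185_a_at), gave 7.77, 7.32 and 7.56 in controls, against 8.32, 8.08 and 6.67 in mutants. Mutants 1 and 2 lay above all controls and mutant 3 below them, so the mutants fell on both sides. Its log2 fold change was 0.14 (SE 0.43, 95% interval -0.84 to 1.12, adjusted p = 0.886), and its sign was negative on the deposited scaling (-0.31) and with arrays centred on the median (-0.09). The suffix _a_at marks a probe set that matches several transcripts of the same gene, and the signal does not tell which start was used.

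RefSeq lists a pair of start sites for Mlxipl on chromosome 5, which are shown because their upstream windows differ in the elements found. The upstream one has CACGTG 98 bases before the start and CCAAT 173 bases before it, and the downstream one has the TCACNCCAC match 136 bases before the start. Capitals mark these matches.
Mlxipl, upstream start, plus strand, chr5:135089640-135089889: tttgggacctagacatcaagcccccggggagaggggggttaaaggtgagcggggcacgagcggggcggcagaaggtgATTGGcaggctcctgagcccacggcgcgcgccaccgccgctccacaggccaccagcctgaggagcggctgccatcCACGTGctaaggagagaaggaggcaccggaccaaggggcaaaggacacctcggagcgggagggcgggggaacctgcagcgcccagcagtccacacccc
Mlxipl, downstream start, plus strand, chr5:135106641-135106890: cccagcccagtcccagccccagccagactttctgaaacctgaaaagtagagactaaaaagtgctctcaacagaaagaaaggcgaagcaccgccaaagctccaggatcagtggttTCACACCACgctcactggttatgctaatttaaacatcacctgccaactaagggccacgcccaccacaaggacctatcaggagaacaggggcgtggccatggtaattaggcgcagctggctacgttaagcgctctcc

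Pnpla3 encodes adiponutrin, a lipid droplet protein and a target of SREBP-1c and ChREBP. Its only probe set, 1420655_at, gave 2.69, 3.16 and 2.53 in controls, against 1.85, 3.28 and 3.51 in mutants. Both group means, 2.79 and 2.88, lay at or below background, so the level of Pnpla3 was not measured well enough for a fold.

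The 3 mutant arrays were not alike across the pathway. The median shift of the 10 genes from the control mean was -2.02 on mutant 1, -0.78 on mutant 2 and -1.43 on mutant 3, while single controls lay between -0.15 and 0.11. The median over all genes shifted by 0.07, 0.07 and 0.14 on the same mutant arrays. In each of the 6 non-overlapping genes mutant 2 was the highest mutant array and mutant 1 the lowest, in Me1 only by a scaled signal of 63.8 to 64.2 on mutant 3. Among the 1423 genes with all mutants below all controls, 51.1% had that order. Without mutant 2, Acly, Fasn and Thrsp passed the threshold, with log2 fold changes of -2.44, -4.26 and -9.63, where 2.36% of all genes passed. Their adjusted p values were then 0.0120, 0.00276 and 0.00959 (limma), and over the 15 alternative settings they ranged from 0.0120 to 0.750, from 0.00276 to 0.929 and from 0.00959 to 0.929. The value for Thrsp without mutant 2 rests on 1 array at the floor and 1 near background. Without mutant 1, the log2 fold changes were -1.69 for Acly, -2.29 for Fasn and -4.87 for Thrsp (adjusted p = 0.0524, 0.236 and 0.177 by limma). On those arrays Acss2 passed (-1.81, adjusted p = 0.0191, range 0.0191 to 0.929), where 0.631% of all genes did.

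The arrays also differed in RNA quality, and the order was the same. The ratio of 3' to 5' control probe sets, which is high where RNA is degraded or copied incompletely, was 1.91, 1.68 and 2.36 for Actb in controls, against 5.33, 2.36 and 2.92 in mutants (two-sided exact permutation p = 0.2, where 0.1 is the smallest that 3 arrays against 3 allow). For Gapdh it was 0.711, 0.679 and 0.756 in controls, against 1.01, 0.773 and 0.866 in mutants, with every mutant above every control (exact permutation p = 0.1). For Pcx the exact permutation p was 0.2. An index averaging the centred log2 ratios of Actb, Gapdh and Pcx was -0.394, -0.526 and -0.092 in controls, against 0.871, -0.126 and 0.267 in mutants. It was highest on mutant 1, where the lipogenesis genes were lowest, and mutant 2 lay within the control range of the index but above all controls in the Gapdh ratio. On mutant 2, the array nearest to controls in this index, the log2 shifts from the control mean were -0.79 for Slc25a1, -1.23 for Acly, -1.61 for Acss2, -0.93 for Me1, -0.78 for Fasn and -2.07 for Thrsp, genes selected for lying below all controls on every mutant array. The shifts of the other members on mutant 2 were -0.13 for Acaca, -0.37 for Acacb, 0.54 for Mlxipl and 0.49 for Pnpla3. The part of RNA quality in these differences was not tested beyond the covariate. With the index as a covariate the log2 fold changes of the 6 non-overlapping genes were nearer to 0, at -1.16 for Acly, -0.64 for Slc25a1, -1.06 for Acss2, -0.69 for Me1, -1.04 for Fasn and -1.91 for Thrsp. By limma, 2 of the 10 genes were lower at an unadjusted p under 0.05, against 3.04% of all genes. Acaca was then at -0.04, Acacb at 0.20 and Mlxipl at -0.14, the last pair with the sign changed.

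**Figure D3:**
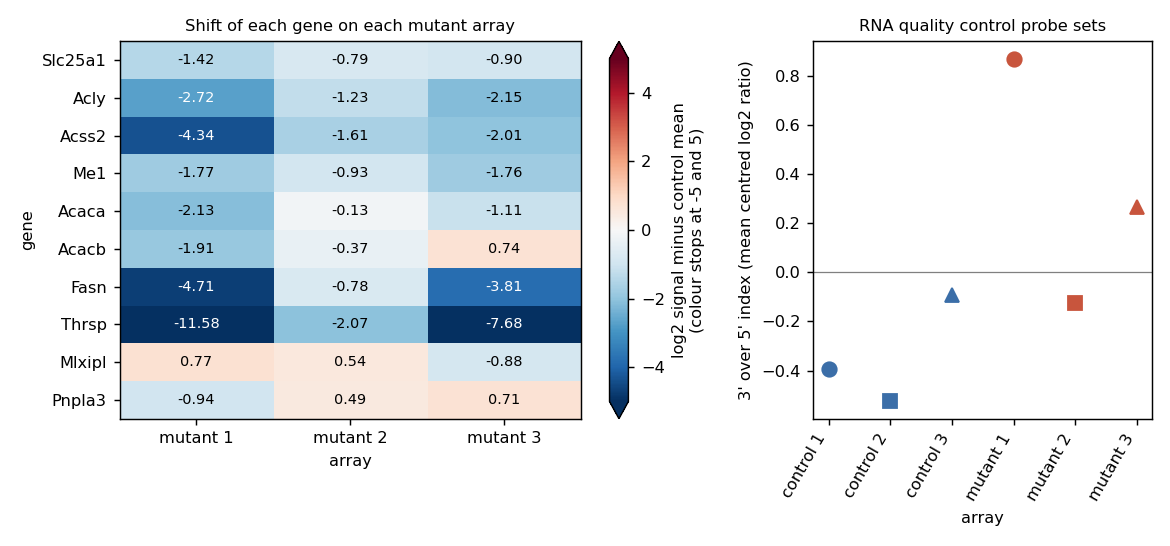
Left, log2 signal minus the control mean for each gene (rows) on each mutant array (columns), with the value printed; the colour scale stops at -5 and 5. Right, the 3' over 5' index of the control probe sets on each of the 6 arrays, highest on mutant 1 at 0.871, with mutant 2 at -0.126 inside the control range.

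Markers of cell types were followed on the same arrays, since fewer cells of a type and less RNA per cell cannot be told apart in whole liver. The hepatocyte list held 12 genes, of which 10 were measured. After scaling, 8 of these were higher on every mutant array than on any control, where 14.1% of all genes were. Of the 10, 9 had a positive log2 fold change, where 45.9% of all genes had a negative one. The summed signal of the list was between 53700 and 60300 in controls and between 66100 and 82500 in mutants. Alb, for example, gave 12.82, 12.53 and 12.64 in controls, against 13.30, 12.87 and 13.01 in mutants. On the scaled values Alb moved in the opposite direction to the lipogenesis genes. Scaling multiplied mutants 1 to 3 by 1.448, 0.9285 and 1.27, and controls 1 to 3 by 0.9768, 0.7722 and 0.8877. The size of the hepatocyte differences thus depends on the scaling, and so can their sign. The median log2 fold change of all genes was 0.06 after scaling and -0.39 on the deposited scaling. After scaling, that of the hepatocyte list was 0.34 and Alb was at 0.40. The hepatocyte differences were not computed on the deposited signals. Of the 10 adipocyte genes 7 had a probe set and 3 passed the dim filter, with summed signals of 1650 to 2070 in controls and 1360 to 2400 in mutants. Adipoq, Lep and Cidea were at or below background on all 6 arrays, Retn was above it on 2 arrays and Cidec on 1. Fabp4 and Lpl, which other liver cells also express, were above background on all 6 arrays and differed by -0.04 and 0.08 (adjusted p = 0.945 and 0.897). Stellate cell markers were summed at 2820 to 3070 in controls and 868 to 2910 in mutants. Of the 10 stellate genes 9 had a negative log2 fold change, against 45.9% of all genes, and the median was -1.01. Without overlap 3 were lower, against 10.8% of all genes. At an unadjusted p under 0.05 by limma, 4 were lower, against 7.01% of all genes. The collagen gene Col3a1 had the largest change of this list (-3.56, adjusted p = 0.296 by limma). It gave 9.77, 9.76 and 9.69 in controls, against 3.56, 8.61 and 6.38 in mutants. That is the mutant order of Fasn and Thrsp, which 51.1% of all genes lower without overlap had. Other stellate genes changed less, such as Dcn at -0.05, and Des was higher at 0.75. Of the 10 blood cell genes 6 had a probe set and 4 passed the dim filter, with summed signals of 367 to 584 in controls and 93.3 to 451 in mutants. Of the 4 kept, 3 had a negative and 1 a positive log2 fold change. Alas2 had the largest (-2.97, adjusted p = 0.352 by limma), with overlap through mutant 2, while S100a8 was at 0.28. The part of stellate or blood cells in the lipogenesis result was not tested. The ranges for Kupffer cells (1700 to 2340 and 1140 to 1840) and endothelial cells (900 to 1390 and 501 to 1820) overlapped. Of the 10 Kupffer cell genes 8 were negative and 3 lower without overlap, with a median of -0.46. Of the 10 endothelial genes 6 were negative and 0 lower without overlap. The cholangiocyte ranges (36.3 to 40.2 and 42.8 to 65.3) did not overlap, but rest in part on signals near background. Cftr was at or below background on all 6 arrays, Sox9 above it on 1 and Krt7 on 3. No marker in these lists passed the adjusted threshold.

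The targeted gene was not a clear check of the labels. Srf (1418256_at) gave 5.31, 5.14 and 5.11 in controls, against 4.17, 5.24 and 2.54 in mutants (-1.20, adjusted p = 0.398). On this probe set mutant 2 was within the control range. The dimmer Srf probe set 1418255_s_at gave 3, 3.69 and 3.37 in controls, against 3.29, 0 and 1.99 in mutants (-1.59, adjusted p = 0.411). There mutant 2 was at the floor and mutant 3 under background, so the order of these arrays has no meaning. With arrays under background raised to it, the difference was -0.23 on this probe set. On 1418256_at, where mutant 3 was under background, it was -1.04. The position of these probe sets relative to the deleted part was not analysed here.

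Other enzymes that serve the pathway were divided. Of 20 partner and carbon supply enzymes 18 were measured; none passed the adjusted threshold, 6 were lower and 2 higher without overlap between the groups, and the median log2 fold change was -0.44. Over all genes, 10.8% were lower and 14.1% higher without overlap, so the share higher was near the background here. At an unadjusted p under 0.05, 4 were lower and 1 higher, against 7.01% and 7.36% of all genes. Aacs, which activates acetoacetate in the cytosol for lipid synthesis, gave 6.79, 6.62 and 5.34 in controls, against 3.56, 4.02 and 3.69 in mutants (-2.49, adjusted p = 0.103). Elovl6, the elongase that extends palmitate, gave 7.98, 8.21 and 7.84 in controls, against 1.41, 6.16 and 4.59 in mutants (-3.95, adjusted p = 0.258). Mutant 1 of Elovl6 was under background, and with arrays raised to background the difference was -3.41. The mutant order of Elovl6 was that of Fasn and Thrsp, which 51.1% of all genes lower without overlap had. Pgd, which makes NADPH in the pentose phosphate pathway, was at -0.79 (adjusted p = 0.353). Mlycd, which degrades malonyl-CoA, was higher without overlap (1.0, adjusted p = 0.309), at 7.02, 7.33 and 7.71 in controls, against 8.43, 7.81 and 8.83 in mutants.

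Of 25 transcription factors and upstream regulators 24 were measured and none passed the adjusted threshold; 2 were lower and 2 higher without overlap, and the median was -0.37. Neither count without overlap was above the shares of all genes, 10.8% lower and 14.1% higher. At an unadjusted p under 0.05, 3 were lower and 1 higher, against 7.01% and 7.36% of all genes. Insig1, a target and brake of SREBP processing, gave 9.08, 9.04 and 9.18 in controls, against 7.58, 8.89 and 7.48 in mutants (-1.12, adjusted p = 0.321). Srebf2, which encodes the sterol-responsive SREBP-2, was at -0.79 (adjusted p = 0.333), and Irs2, an insulin receptor substrate, at 1.72 (adjusted p = 0.326). The nuclear receptor gene Nr0b2 was at -3.69, with overlap only through mutant 2 (adjusted p = 0.355). Mutant 1 of Nr0b2 was under background, and with arrays raised to background the difference was -3.05. Srebf1, which encodes SREBP-1 and is named here after its values were seen, gave 9.95, 9.25 and 8.77 in controls, against 7.17, 9.73 and 6.20 in mutants. Mutants 1 and 3 of Srebf1 were below all controls, and mutant 2 lay within the control range (-1.62, adjusted p = 0.391).

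Of 18 carbohydrate-responsive genes linked to ChREBP 15 were measured and none passed the adjusted threshold; 4 were lower and 2 higher without overlap, and the median was -0.32. The shares of all genes without overlap were 10.8% lower and 14.1% higher, and the count of higher genes was near that background. At an unadjusted p under 0.05, 4 were lower and 2 higher, against 7.01% and 7.36% of all genes. Pklr, which encodes liver pyruvate kinase and is a classic ChREBP target, gave 7.59, 7.87 and 7.72 in controls, against 3.77, 6.37 and 5.71 in mutants (-2.44, adjusted p = 0.242). Khk, fructokinase, was at -0.76 (adjusted p = 0.331). Txnip, also a ChREBP target, went the other way, at 7.59, 7.76 and 9.04 in controls, against 10.53, 9.17 and 9.61 in mutants (1.64, adjusted p = 0.292). Pdk4, an inhibitor of pyruvate dehydrogenase best known for its induction by fasting, gave 3.91, 5.24 and 6.64 in controls, against 11.58, 7.64 and 8.46 in mutants (3.96, adjusted p = 0.270). Of the 15 genes of this list, 10 had a negative and 5 a positive log2 fold change, where 45.9% of all genes were negative.

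**Figure D4:**
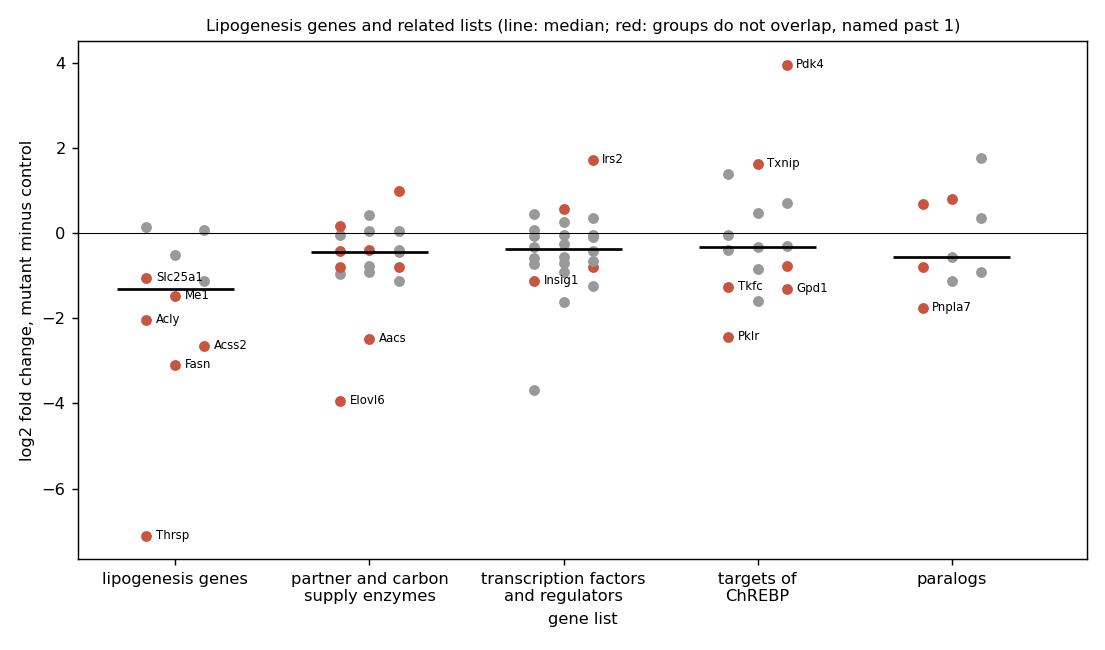
Log2 fold change, mutant minus control (vertical axis), of the 10 lipogenesis genes and of 4 related lists; each point is a gene, the line is the median, red marks groups that do not overlap, and such genes are named where the change exceeds 1 in size. The median is -1.30 for the lipogenesis genes and -0.44, -0.37, -0.32 and -0.55 for the other lists.

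Paralogs of the members varied. Of 13 paralogs 12 had a probe set and 9 were kept; none passed the adjusted threshold, 2 were lower and 2 higher without overlap, where 10.8% and 14.1% of all genes were. At an unadjusted p under 0.05, 1 paralog was lower and 2 were higher, against 7.01% and 7.36% of all genes, and so few genes say little about shares. Pnpla7, a lysophospholipase, gave 9.78, 9.92 and 9.05 in controls, against 7.28, 8.11 and 8.09 in mutants (-1.76, adjusted p = 0.148). Pnpla2, adipose triglyceride lipase, was at 1.76 (adjusted p = 0.341) and Pnpla6 at 0.81 (adjusted p = 0.319). The mitochondrial dicarboxylate carrier gene Slc25a10, also in the partner list, was at -0.79 (adjusted p = 0.393).

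The genes outside the 10 whose signals over the 6 arrays were most like that of Fasn were Papss1, Ube2l6, Sema4a, Gprc5c and H2-Q10, with Pearson r between 0.995 and 0.997. Their log2 fold changes were smaller, between -1.28 and -0.65. Those most like Mlxipl were Mad2l1bp, Mtus1, Inpp5k, Mapk12 and Arhgef12, with r between 0.976 and 0.991 and log2 fold changes between 0.00 and 0.31. Such r values rest on 6 arrays that share group, scaling and RNA quality, and are a description.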

How the data were processed

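Liver RNA of 3 control and 3 mutant mice was hybridised to 1 Affymetrix array each, and samples were grouped by their titles. The authors' deposited table holds 1 linear intensity per probe set and array; per the submitters' processing notes the software was GCOS, for which the sources used here give no algorithm or scaling. Arrays were scaled to a common trimmed mean (2% trimmed at each end), the average over the 6 arrays, signals under 1 were set to 1 (12.4% to 17.0% of probe sets per array), log2 was taken, and the dimmest 40% of probe sets by mean over all arrays were left out. Symbols came from the platform annotation, matched to RefSeq symbols through Entrez identifiers for 34741 of 34945 probe sets with a single symbol. Groups were compared with limma 3.58.1 in R 4.3.3 (lmFit, eBayes with trend, two-sided), and the steps were tested on simulated data. Background was the 95th percentile of 83 probe sets of olfactory, vomeronasal and taste receptors. Non-overlap means that all mutant arrays lay on the same side of all controls.

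The 10 members and the gene lists were chosen with earlier results of these data known. Genes named were all members, up to 4 of each pathway list with the smallest adjusted p, the 5 most correlated with Fasn and with Mlxipl, Srf and the 3 array control genes. Srebf1 and the cell type markers given singly (Alb, Adipoq, Lep, Cidea, Cidec, Retn, Fabp4, Lpl, Col3a1, Dcn, Des, Alas2, S100a8, Cftr, Sox9, Krt7) were named after their values were seen. The replicate numbers of the titles were not used as pairs in the main fit. Deviations of same-numbered control and mutant arrays correlated at -0.04, 0.02 and 0.04, which over so few arrays cannot exclude a pairing. Alternatives were other scalings, log2(signal + 32), no dim filter, no variance trend, the mean over probe sets, a covariate for RNA quality (the 3' over 5' index), the replicate block and each array left out. The number of arrays limits the precision.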

Additional observations from a re-analysis of the deposited data

How the results depend on the processing

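Over 15 alternative settings, counting each array left out, Slc25a1, Acly, Acss2, Me1, Acaca, Fasn and Thrsp kept a negative log2 fold change. In these settings 6 or 7 of the 10 genes had all mutants below all controls, where 8.53% to 20.4% of all genes did. The covariate, the replicate block and the variance trend cannot change that count, and leaving out an array cannot lower it. With 1 array left out, between 0 and 3 of the 10 genes passed the threshold, and their median log2 fold change lay between -1.69 and -1.09. The median was -1.75 on the deposited scaling, where the median of all genes was -0.39 in place of 0.06 and the calls over all genes were 3 higher and 18 lower in place of 4 and 11. With a covariate for RNA quality the median was -0.67 and 2 genes were lower at an unadjusted p under 0.05. The sign of genes near 0 changed: Mlxipl was at -0.31 on the deposited scaling, -0.09 with arrays centred on the median, -0.14 with the covariate and between -0.17 and 0.65 with an array left out. For Pnpla3, whose group means were at or below background so that its sign has no meaning, the fitted difference was 1.10 with the covariate, -0.37 on the deposited scaling, -0.15 after quantile normalization, -0.15 with arrays centred on the median and between -0.23 and 0.60 with an array left out. Acacb was at 0.20 with the covariate and between -1.14 and 0.19 with an array left out. The cause was not tested.

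With the replicate block the median was -1.30 and no member passed; the block changed no call among the 10 genes, and 14 of all genes passed in place of 15. Over all genes the number past the threshold was 67 after log2(signal + 32), 0 without the dim filter, 5 without the variance trend, 3 with the covariate and between 1 and 310 with an array left out. Pnpla3 and the dim probe sets are limited by signal near background.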
